A study of Mus musculus with 36 samples.

Results

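Mouse embryonic stem cells grown for 3 days without leukemia inhibitory factor (LIF) were compared with cells of the same Oct4:eGFP reporter line kept with LIF. The comparison covers 12 of the 36 samples, chosen by their labels, and these are 6 of the 18 RNA libraries, each hybridised to 1 array of type A and 1 of type B of an Affymetrix mouse genome set. The 3 day 3 libraries are the high, medium and low reporter gates of cells plated on gelatin. The 3 controls (high replicate 1, high replicate 2 and medium) were collected 2 days after plating with 1000 U per mL LIF, and their plating density was not given in the sources used here. Routine culture was on growth-arrested mouse embryonic fibroblasts, and the gates of a condition serve as its replicates. No label says that the libraries came from separate cultures. The p-values rest on the spread left between libraries after condition and gate, pooled over all 18 libraries, and it may be technical. Loss of LIF, the additional day in culture and any difference in plating density cannot be told apart. Among cells without LIF, fewer were plated for day 3 than for day 1, and fewer again for day 5. Time without LIF and plating number therefore cannot be told apart between those days.

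LIF binds a receptor made of the Lifr and gp130 (Il6st) chains. The receptor activates Jak kinases, which phosphorylate the transcription factor STAT3. STAT3 then turns on targets such as Socs3, which feeds back to dampen the receptor, and Klf4, which supports the naive pluripotent state. In mouse stem cells and in the embryo around implantation, loss of naive factors precedes loss of Oct4 (Pou5f1) and Sox2. Cells leaving the naive state pass through an epiblast-like stage before they form the germ layers.

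Signals below are MAS5 values in the order high replicate 1, high replicate 2 and medium for controls, and high, medium and low for day 3. Differences are day 3 minus control on the log2 scale after adding 4 (chip A) or 7 (chip B) to the signal, with the standard error of the fit after ±. The added value understates the change of dim genes. Adjusted p-values come from limma over all tested probe sets of a chip, and a value under 0.05 counts as past the test. In these sorted bulk samples, fewer cells of a type and less RNA per cell cannot be told apart.

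Of the marker genes of the comparison, Zfp42 was lower and Krt18 higher at day 3. Zfp42 (Rex1), a marker of undifferentiated cells, had signals of 1276, 687 and 1018 in the controls and 159, 182 and 218 at day 3 (log2 difference -2.49 ± 0.37, adjusted p = 0.000903). Krt18, a keratin of simple epithelia, had signals of 48.0, 60.9 and 61.4 in the controls and 236, 333 and 316 at day 3 (log2 difference 2.18 ± 0.36, adjusted p = 0.00173). For both genes all day 3 libraries lay on 1 side of all controls.

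The run records place all day 3 arrays on 1 scan day, together with day 1 with retinoic acid (RA), the controls on 2 other days, and the remaining libraries without LIF mostly on another. Scan day and day 3 cannot be told apart by a fixed term, so counts with scan day as a random block are given beside the main ones. RNA from control libraries had higher 3' to 5' log2 ratios than day 3, 1.22 ± 0.12 against 0.93 ± 0.18 for Actb and 0.99 ± 0.11 against 0.70 ± 0.07 for Gapdh on chip A (SD, n = 3 each, two-sided exact permutation p = 0.2 and 0.1, where 0.1 is the smallest possible). On chip B these were 1.27 ± 0.14 against 0.90 ± 0.21 and 1.10 ± 0.16 against 0.60 ± 0.16 (exact permutation p = 0.1 for both). The part of scan day and RNA quality in the results below was not tested. A day 1 library, the high gate replicate 2 grown without LIF, stood apart from its arm, for example with a signal of 86.8 for Nr0b1 against 700.4 to 958.0 in the other 3. It enters the day 3 test through the shared error estimate and is called the doubted library below.

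In all, 1716 of 14900 probe sets (11.5%) were past the test, 973 higher (6.53%) and 743 lower (4.99%) at day 3. With 1 probe set per gene, 1252 of 9833 genes (12.7%) changed, 682 higher (6.94%) and 570 lower (5.80%). Counts of list members below stand beside these shares. The median difference over all genes was 0.04. All day 3 libraries lay above all controls for 1845 genes (18.8%) and below them for 1504 (15.3%). With scan day as a random block 387 probe sets were past the test, without the doubted library 2264, and with 1 of the 6 libraries left out between 871 (without day 3 high) and 1657 (without control high 2). Against control high 2 alone, the only control of its scan day, 248 were past the test. The 95% interval of a difference reached 0.45 to either side at the median probe set.

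Of the 119 genes named by the rule, 95 were past the test at day 3, 49 higher and 46 lower, where 12.7% of all genes were. The rule takes large changes and small p-values, so this count was largely fixed by the choice. None of the 95 turned direction under the alternatives run, which genes chosen in this way would seldom do. With the random block 39 of them were no longer past the test: Bmp4, Bub1b, Cald1, Ccnd3, Col18a1, Col5a1, Dab2, Ebp, Efemp1, Fst, Hes6, Hk2, Hspa1b, Id1, Inhba, Itga6, Jarid2, Jund, Krt8, Lama1, Lama5, Lgals3, Lsr, Mtf2, Nanog, Nefm, Nell2, Nodal, Peg3, Prtg, Rrm1, Samd4, Slc27a2, Slc38a4, Sox2, Sox3, Tfap2c, Top2a and Zfp36. Against control high 2 alone 27 of the 95 passed, and without the doubted library all 95 did. Of the 24 named genes with no call, 6 passed without the doubted library: Ccng1, Col4a1, Lss, Meg3, Slc16a1 and Stra8. With chip lot as a fixed block on chip B the calls of Bub1b, Cabp1, Cdk6, Efemp1, Nefm, Plekhg2, Rara, Samd4 and Zic5 were lost, with adjusted p between 0.0666 and 0.348, and Pmaip1 passed (1.03, adjusted p = 0.0397).

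The largest falls joined stem cell regulators with genes of adhesion and the cytoskeleton. Mapt, the microtubule-binding protein tau, had signals of 603, 289 and 385 in the controls and 6.54, 8.28 and 30.5 at day 3 (log2 difference -4.97 ± 0.61, adjusted p = 0.000233), the largest fall of all genes. Its other 3 probe sets gave -2.13, -0.99 and -1.64, of which -0.99 was not past the test. Nr0b1 (Dax1), a nuclear receptor of the stem cell network, had signals of 959, 701 and 686 in the controls and 54.3, 61.3 and 55.7 at day 3 (log2 difference -3.73 ± 0.63, adjusted p = 0.00191). The day 3 libraries of Nr0b1 sat within a narrow band far below every control.

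Mras, a Ras-family GTPase, had signals of 761, 264 and 416 in the controls and 36.1, 25.4 and 20.4 at day 3 (log2 difference -3.68 ± 0.44, adjusted p = 0.000569). Jam2, a junctional adhesion molecule, had signals of 803, 439.8 and 554 in the controls and 49.1, 45.3 and 54.1 at day 3 (log2 difference -3.51 ± 0.43, adjusted p = 0.000569). Calml4, a calmodulin-like protein, had signals of 246, 78.3 and 237 in the controls and 10.4, 8.08 and 18.6 at day 3 (log2 difference -3.67 ± 0.41, adjusted p = 0.000156). In all 3 genes control high 2 was the lowest control and still lay above every day 3 library. Calcoco2, an autophagy receptor, had signals of 67.8, 99.6 and 52.2 in the controls and 4.38, 5.74 and 2.78 at day 3 (log2 difference -3.13 ± 0.35, adjusted p = 0.000149). Cdyl2, a chromodomain protein, fell by 7.57-fold (log2 difference -2.92 ± 0.29, adjusted p = 0.000209) and Lrrc34 by 7.01-fold (log2 difference -2.81 ± 0.23, adjusted p = 8.08e-05). Cobl, an actin nucleator, fell by 11.2-fold (log2 difference -3.49 ± 0.67, adjusted p = 0.00673) on 1 probe set, while another probe set of Cobl stayed at 0.14 ± 0.22.

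The largest rises held actin-binding proteins of contractile cells, secreted factors and a Wnt ligand. Tagln, the actin-binding protein SM22, had signals of 33.0, 60.4 and 40.1 in the controls and 524, 680.3 and 617 at day 3 (log2 difference 3.74 ± 0.56, adjusted p = 0.00092). Cnn1, the actin-binding protein calponin, had signals of 3.23, 2.73 and 5.17 in the controls and 81.3, 97.7 and 88.6 at day 3 (log2 difference 3.69 ± 0.49, adjusted p = 0.00045). For both genes every day 3 signal was several times the highest control. The brightness filter takes the mean over all libraries, and the lowest mean signal tested on chip A was 23.9. All controls of Cnn1 lay under it, so its place among the tested genes and the risers rests on day 3 and other arms. Igfbp3, a secreted binding protein of insulin-like growth factors, had signals of 24.9, 32.0 and 46.1 in the controls and 249.9, 287 and 394 at day 3 (log2 difference 3.15 ± 0.34, adjusted p = 0.000129). Slit3, a ligand of Robo guidance receptors, had signals of 11.5, 29.1 and 54.3 in the controls and 244, 333 and 401 at day 3 (log2 difference 3.22 ± 0.32, adjusted p = 0.000209). These 2 secreted proteins were also separate between the groups, with the low gate the highest of the day 3 libraries.

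Prom1, the membrane glycoprotein CD133, had signals of 12.1, 66.5 and 31.9 in the controls and 283, 254 and 305 at day 3 (log2 difference 3.10 ± 0.56, adjusted p = 0.00281), and a second probe set gave 3.17. Trim67, a ubiquitin ligase, had signals of 4.31, 36.4 and 13.1 in the controls and 165, 128 and 169 at day 3 (log2 difference 3.05 ± 0.41, adjusted p = 0.00108). Plekhg2 had signals of 37.6, 89.8 and 39.9 in the controls and 433, 445 and 440.1 at day 3 (log2 difference 2.89 ± 0.53, adjusted p = 0.00483). In these 3 genes control high 2 was the highest control and lay below every day 3 library. Cnr1, a cannabinoid receptor, rose 6.74-fold (log2 difference 2.75 ± 0.38, adjusted p = 0.00118). Lrrc8c, a subunit of volume-regulated anion channels, rose 7.39-fold (log2 difference 2.89 ± 0.47, adjusted p = 0.00139) on 1 probe set, with -0.15 ± 0.33 on another. Prtg, the immunoglobulin-family surface protein protogenin, rose 9.45-fold (log2 difference 3.24 ± 0.86, adjusted p = 0.0327), and its call was lost when any 1 of the 6 libraries was left out and with the random block.

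**Figure D1:**
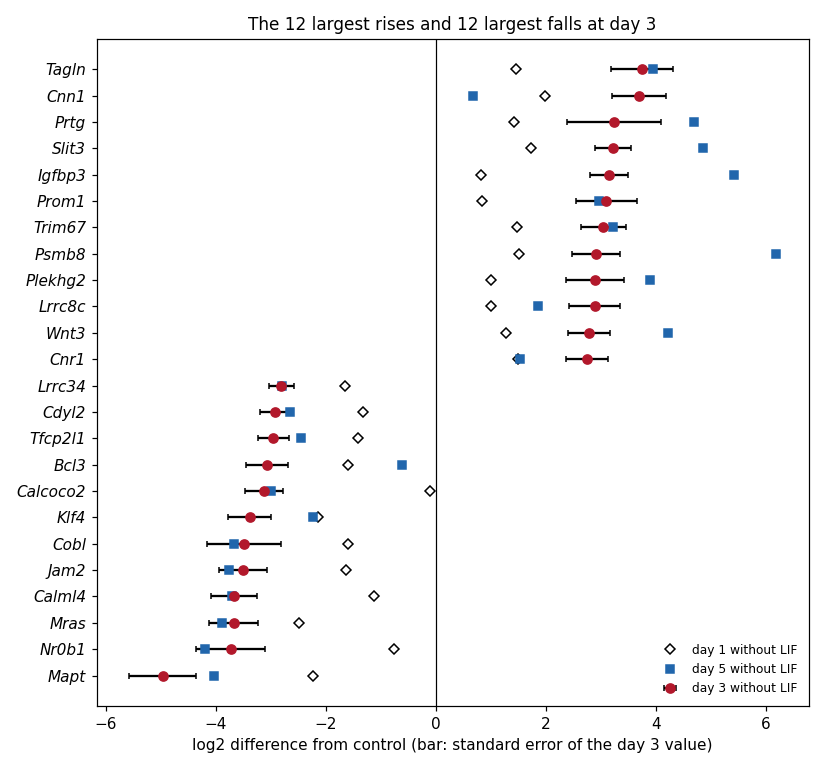
The 12 largest rises and 12 largest falls at day 3 (red points, with standard error) as log2 differences from control, beside the fitted differences at day 1 (open diamonds) and day 5 (blue squares) without LIF. Mapt stands lowest at -4.97 and Tagln highest at 3.74 at day 3, and Cnn1 and Bcl3 are nearer 0 at day 5 than at day 3.

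Of the genes of LIF signalling, the 2 receptor chains and several STAT3 targets fell while the kinases and STAT3 itself were not past the test. Among 24 tested genes 8 fell and 2 rose, against 5.80% and 6.94% of all genes, with a median of -0.16. Lifr changed by -1.07 ± 0.26 (adjusted p = 0.0161) and Il6st by -0.77 ± 0.19 (adjusted p = 0.015). Stat3 was at -0.21 ± 0.16 (adjusted p = 0.4), Jak1 at 0.24 ± 0.15 (adjusted p = 0.311) and Jak2 at 0.60 ± 0.27 (adjusted p = 0.152). Ptpn11 (Shp2), the phosphatase that links gp130 to the MAP kinase route, rose by 0.64 ± 0.13 (adjusted p = 0.00959), and Socs2, another suppressor of cytokine signalling, by 0.59 ± 0.17 (adjusted p = 0.0324). With scan day as a random block 5 of the 24 fell and 0 rose, and without the doubted library 9 fell and 3 rose.

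The clearest single change was in Socs3. Its signals were 438, 378 and 538 in the controls and 70.9, 70.3 and 75.3 at day 3 (log2 difference -2.71 ± 0.16, adjusted p = 6.43e-07), so that the 3 day 3 libraries lay within a few units of each other and below all controls. Another Socs3 probe set on chip B gave -0.33 ± 0.44 and was not past the test. The 250 bases before the Socs3 start hold 1 match to TTCNNNGAA, the palindromic core of STAT sites, shown in capitals because the gene is the classic STAT3 feedback target (RefSeq GRCm38.p6, chr11:117969367-117969616, minus strand).
Socs3: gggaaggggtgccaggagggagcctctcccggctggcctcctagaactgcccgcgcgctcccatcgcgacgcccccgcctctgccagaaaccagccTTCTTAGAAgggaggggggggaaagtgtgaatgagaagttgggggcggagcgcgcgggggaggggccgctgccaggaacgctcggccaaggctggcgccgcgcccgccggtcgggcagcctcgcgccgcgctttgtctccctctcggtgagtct
Such a match, on either strand, occurs in 8.13% of 27025 genes with a promoter in that table. It was found in 3 of 21 LIF pathway genes with a promoter, Socs3, Icam1 and Sgk1. The motif was chosen after values were seen, and a match is not evidence of binding.

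Klf4, a STAT3-dependent factor of the naive state, had signals of 1061, 476 and 847 in the controls and 57.7, 75.6 and 125 at day 3 (log2 difference -3.39 ± 0.39, adjusted p = 0.000161). Bcl3, a nuclear IkB-family protein, had signals of 143, 158 and 151 in the controls and 16.4, 14.3 and 14.0 at day 3 (log2 difference -3.07 ± 0.38, adjusted p = 0.000246). Gbx2, a homeobox target of STAT3, had signals of 348, 178 and 194 in the controls and 36.3, 35.5 and 34.7 at day 3 (log2 difference -2.49 ± 0.29, adjusted p = 0.000161). In each of the 3 genes no day 3 library reached any control. A second Bcl3 probe set gave -0.50 ± 0.21. Klf5, a relative of Klf4, changed by -1.03 ± 0.22 (adjusted p = 0.00673) and Icam1, an adhesion receptor, by -1.40 ± 0.21 (adjusted p = 0.000903). Pim1 (0.51 ± 0.24), Pim3 (-0.06 ± 0.14), Junb (0.50 ± 0.22) and Myc (0.62 ± 0.36), which STAT3 also regulates in other settings, were not past the test, nor was the suppressor Socs1 (0.58 ± 0.21).

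Among 23 pluripotency genes 12 fell and 1 rose, against 5.80% and 6.94% of all genes, and the list median was -0.83. With the random block 7 fell, without the doubted library 15, and with 1 library left out between 10 (without control medium, day 3 high or day 3 low) and 11 (without control high 1, control high 2 or day 3 medium). Tfcp2l1, a naive factor downstream of STAT3, had signals of 1244, 778 and 1216 in the controls and 112, 133 and 233 at day 3 (log2 difference -2.96 ± 0.28, adjusted p = 4.49e-05), although a second probe set stayed at 0.03 ± 0.23. Fbxo15, an F-box protein under Oct4 and Sox2 control, had signals of 489.9, 469 and 510.4 in the controls and 64.7, 94.8 and 138 at day 3 (log2 difference -2.47 ± 0.28, adjusted p = 0.000161). In both genes the low gate was the highest day 3 library and still below each control. Tcl1, a coactivator of Akt, changed by -2.25 ± 0.34 (adjusted p = 0.00112). Nr5a2, a nuclear receptor that binds the Oct4 gene, changed by -1.60 ± 0.29 (adjusted p = 0.00281), and Klf2 by -1.15 ± 0.31 (adjusted p = 0.025). Dppa3, also of the naive state, was at -0.47 ± 0.37 and not past the test.

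The core factors moved less. Cells were sorted by the Oct4 reporter before RNA was measured, so the choice of gates bears on the level of Pou5f1. The part of the sort in these differences was not tested. Sox2 had signals of 3713, 3441 and 3328 in the controls and 1993, 2023 and 1987 at day 3 (log2 difference -0.82 ± 0.17, adjusted p = 0.00513), a 1.77-fold fall with tight groups on both sides. Nanog had signals of 1871, 1729.9 and 2013 in the controls and 1039, 912 and 1083 at day 3 (log2 difference -0.95 ± 0.29, adjusted p = 0.0415). Pou5f1, the gene read out by the reporter, had signals of 2823, 2388 and 2458 in the controls and 1602, 1662 and 1247 at day 3 (log2 difference -0.68 ± 0.32, adjusted p = 0.181). All day 3 libraries of the 3 genes lay below all controls, but Pou5f1 was not past the test and the call of Nanog was lost when any 1 of the 6 libraries was left out. With the random block neither Sox2 nor Nanog passed. A second Nanog probe set gave -0.59 ± 0.25 and was not past the test. Dppa5a, an RNA-binding protein of early embryos, changed by -0.83 ± 0.16 (adjusted p = 0.0038). Utf1 (-0.30 ± 0.28), Sall4 (0.08 ± 0.15), Gdf3 (-0.32 ± 0.18), Tdgf1 (-0.45 ± 0.35) and Fgf4 (-1.11 ± 0.38) were not past the test. Lin28a, an RNA-binding protein that blocks maturation of let-7 miRNAs, was the 1 riser of the list (0.83 ± 0.19, adjusted p = 0.0173).

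**Figure D2:**
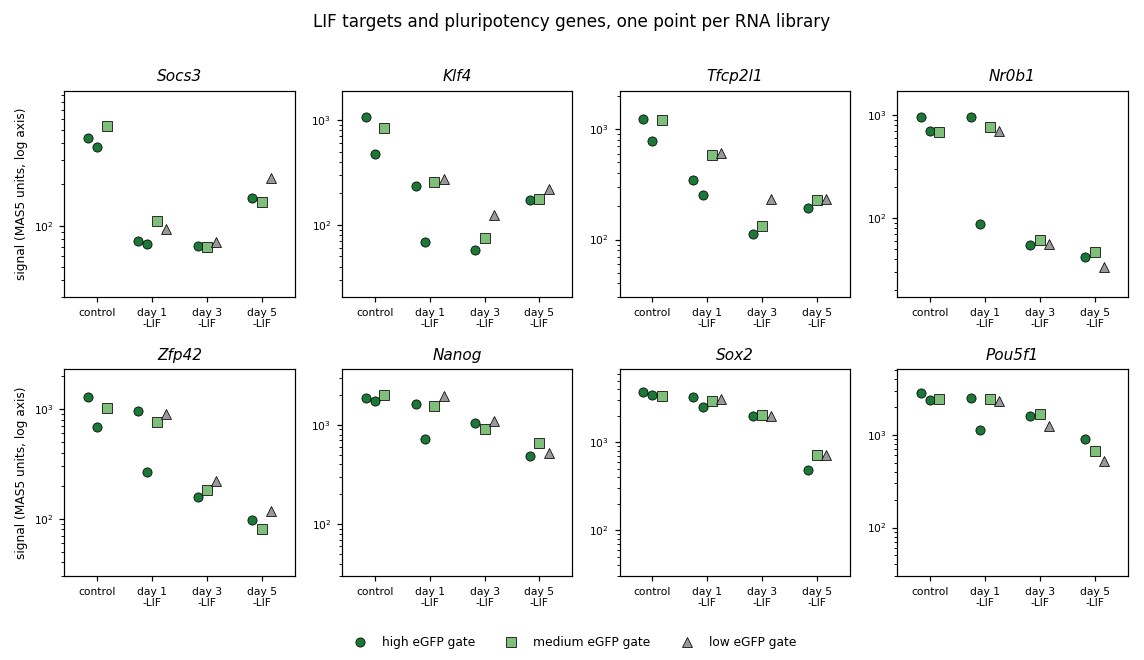
Signal (MAS5 units, log axis) of 8 genes in each library of control and days 1, 3 and 5 without LIF, with the eGFP gate as marker shape. Socs3 is already between 73.7 and 108 at day 1, while Nr0b1 and Zfp42 are near control at day 1 in all but the doubted library and low in all day 3 libraries.

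Genes best known from oocytes and the germ line that mouse stem cells also express fell. In a list of 10 tested genes 4 fell and 0 rose (median -0.67), against 5.80% and 6.94% of all genes. The number that fell was 4 with the random block, 5 without the doubted library and 4 with any 1 of the 6 libraries left out. Trap1a, an X-linked tumour rejection antigen gene, had signals of 1758, 1144 and 1568 in the controls and 373, 323 and 443 at day 3 (log2 difference -1.99 ± 0.21, adjusted p = 0.000127). Ooep, a component of the maternal subcortical complex, had signals of 2259, 1398 and 2020.2 in the controls and 498, 597 and 459 at day 3 (log2 difference -1.87 ± 0.30, adjusted p = 0.00251). No day 3 library of these genes reached a control. Tex19.1, which restrains retrotransposons in mouse germ cells, changed by -1.36 ± 0.26 and Zp3, an egg coat glycoprotein, by -1.47 ± 0.28. Dazl (0.07 ± 0.17), Ddx4 (0.07 ± 0.27) and Zp2 (0.15 ± 0.28) were near 0.

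Genes of the postimplantation epiblast rose as a group, 9 of 15 tested higher and 0 lower, against 6.94% and 5.80% of all genes. The median was 1.08 against 0.04 over all genes. The count was 5 with the random block, 10 without the doubted library and between 6 (without control high 1, control medium, day 3 high or day 3 medium) and 9 (without control high 2) with 1 library left out. Pou3f1 (Oct6), a POU factor that marks the epiblast after implantation, had signals of 13.4, 31.2 and 6.84 in the controls and 82.4, 72.8 and 59.2 at day 3 (log2 difference 2.08 ± 0.31, adjusted p = 0.000903). Sall2, a zinc finger factor, had signals of 9.33, 6.33 and 12.2 in the controls and 83.1, 58.7 and 81.7 at day 3 (log2 difference 2.28 ± 0.36, adjusted p = 0.00251). Zic5, another zinc finger factor, had signals of 118, 176 and 118 in the controls and 379.7, 255 and 284 at day 3 (log2 difference 1.26 ± 0.22, adjusted p = 0.00417). The groups were separate in all 3 genes. Cd24a, a surface sialoglycoprotein, changed by 2.65 ± 0.52 (adjusted p = 0.00462), and Cldn6, a tight junction claudin, had signals of 87.3, 166 and 116 in the controls and 314, 490.1 and 510.5 at day 3 (log2 difference 1.74 ± 0.26, adjusted p = 0.00102). Dnmt3b, the de novo methyltransferase of the epiblast, rose by 1.37 ± 0.39, Sox4 by 1.08 ± 0.33 and Sox11 by 1.03 ± 0.28, while Dnmt3a (0.55 ± 0.31), Zic2 (0.43 ± 0.27), Lef1 (0.61 ± 0.29) and Fgf15 (0.32 ± 0.37) were not past the test. Fgf5 and Otx2, the usual markers of this stage, were too dim to be tested.

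Part of this rise was shared with a neural list. In it 5 of 15 genes rose and 1 fell (median -0.02), against 6.94% and 5.80% of all genes. Nes, the intermediate filament nestin, had signals of 69.1, 99.2 and 66.0 in the controls and 296, 289.8 and 262 at day 3 (log2 difference 1.90 ± 0.29, adjusted p = 0.00101), with the groups well apart. Sox3, a SoxB1 factor of epiblast and neural plate, had signals of 29.5, 72.5 and 61.6 in the controls and 168, 121 and 152 at day 3 (log2 difference 1.55 ± 0.32, adjusted p = 0.00653), also without overlap. Cdh2 (N-cadherin) changed by 1.43 ± 0.39 and Hes6, a bHLH factor, by 0.84 ± 0.20. The neural plate factor Sox1 (-0.33 ± 0.32), Pax6 (0.45 ± 0.52) and the neuronal tubulin Tubb3 (-0.13 ± 0.17) were not past the test, and Mapt was the gene that fell. With the random block 1 gene rose, and with 1 library left out between 2 (without control high 1, day 3 high or day 3 medium) and 4 (without control high 2).

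Epithelial genes rose with 8 of 20 higher and 1 lower (median 0.68), against 6.94% and 5.80% of all genes. Krt8, the partner of Krt18, had signals of 74.0, 128 and 93.6 in the controls and 288, 460.4 and 437 at day 3 (log2 difference 1.88 ± 0.43, adjusted p = 0.0106). Cldn7, a claudin, had signals of 53.4, 116 and 69.4 in the controls and 189.8, 204 and 233 at day 3 (log2 difference 1.43 ± 0.28, adjusted p = 0.00469). Lsr, a receptor of tricellular junctions, had signals of 148, 187 and 182 in the controls and 322, 334 and 359 at day 3 (log2 difference 0.94 ± 0.18, adjusted p = 0.00434). In these genes all day 3 libraries lay above all controls. Krt19 changed by 1.23 ± 0.36, Anxa3 by 1.75 ± 0.40 and Epcam, an adhesion molecule that stem cells express too, by 0.40 ± 0.13. E-cadherin (Cdh1, 0.40 ± 0.20) and the junction proteins Tjp1 (0.29 ± 0.18) and Ocln (1.18 ± 0.36) were not past the test. Lgals3, a galectin, was the gene that fell, with signals of 95.0, 137 and 66.7 in the controls and 25.2, 31.0 and 20.2 at day 3 (log2 difference -1.71 ± 0.53, adjusted p = 0.0446), and this call held only without control medium when 1 library was left out. The count of risers was 3 with the random block, 10 without the doubted library and between 4 (without day 3 medium) and 8 (without control high 2) with 1 library left out. Krt8 lost its call without control medium, without day 3 medium and with the random block.

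In the list of fibroblast and mesenchyme genes 5 of 12 rose and 0 fell (median 0.57), against 6.94% and 5.80% of all genes. The risers were Tagln and Cnn1, described above, with Cald1 (caldesmon, 177, 75.1 and 166 in the controls and 395, 392 and 688 at day 3, log2 difference 1.73 ± 0.40, adjusted p = 0.0187), the small proteoglycan Dcn (1.34 ± 0.38) and the collagen Col5a1 (0.58 ± 0.15). Of these, Tagln, Cnn1 and Cald1 bind actin in contractile cells. Fibroblast feeders were present in the routine culture, and their markers were read beside this list. Col1a1 had signals of 66.9, 76.7 and 76.8 in the controls and 99.6, 109.8 and 93.8 at day 3, Col1a2 of 224, 296 and 262 in the controls and 308, 266 and 238 at day 3 and Thy1 of 41.2, 61.0 and 55.9 in the controls and 79.5, 67.2 and 63.9 at day 3. None of the 3 was past the test, with differences of 0.42, 0.07 and 0.43. Col3a1 had signals of 2.14, 10.7 and 5.86 in the controls and 10.3, 13.3 and 16.1 at day 3 and Lum of 14.8, 9.95 and 20.4 in the controls and 22.6, 13.8 and 17.96 at day 3. Postn lay between 1.94 and 11.9 and Pdgfrb between 4.16 and 11.4 in these 6 libraries, so that 4 of 8 feeder markers fell under the brightness filter and 1, Dcn, rose. The part of feeder cells in this list was not tested. The mean log2 level of the 12 tested genes ranged from 6.07 to 6.32 in the controls and from 7.29 to 7.45 at day 3. The count of risers was 2 with the random block and between 2 (without day 3 low) and 4 (without control high 2 or control medium) with 1 library left out. Cald1 lost its call without control high 2, day 3 high or day 3 low, and Col5a1 without any 1 library except control high 2.

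Of 21 Wnt pathway genes tested, 6 rose and 2 fell (median 0.24), against 6.94% and 5.80% of all genes. The counts were 4 and 1 under the random block. With 1 library left out, between 4 (without control high 1 or day 3 medium) and 7 (without control high 2) rose. Receptors and secreted inhibitors moved in both directions. The ligand Wnt3, needed for the primitive streak in the mouse, had signals of 4.06, 26.6 and 6.68 in the controls and 97.3, 78.4 and 84.0 at day 3 (log2 difference 2.78 ± 0.39, adjusted p = 0.000565). Wls, the carrier that brings Wnt ligands to the cell surface, changed by 2.49 ± 0.55 (adjusted p = 0.00887). The receptor Fzd2 had signals of 42.8, 82.6 and 47.3 in the controls and 306, 341 and 247 at day 3 (log2 difference 2.46 ± 0.33, adjusted p = 0.000458), and a second probe set gave 0.86 ± 0.40, not past the test. Fzd5, another Frizzled receptor, had signals of 1378, 646 and 1207 in the controls and 161, 179 and 261 at day 3 (log2 difference -2.47 ± 0.37, adjusted p = 0.00164). Thus no day 3 library of Wnt3 or Fzd2 lay under a control and none of Fzd5 lay above one. Fzd8 changed by 0.86 ± 0.21 and Fzd3 by 0.57 ± 0.18. Of the secreted inhibitors, Sfrp2 rose (55.2, 80.1 and 61.4 in the controls and 134, 169.9 and 168 at day 3, log2 difference 1.21 ± 0.19, adjusted p = 0.00127) and Sfrp1 fell (-0.76 ± 0.18, adjusted p = 0.0128). The intracellular components Ctnnb1 (0.12 ± 0.16), Apc (0.24 ± 0.19) and Gsk3b (-0.07 ± 0.29) and the target Axin2 (0.51 ± 0.27) were not past the test.

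In the Nodal, activin and BMP pathway 6 of 28 genes rose and 1 fell, against 6.94% and 5.80% of all genes. The median was 0.30. Bmp4, the ligand, had signals of 285, 181 and 215 in the controls and 78.9, 87.7 and 69.5 at day 3 (log2 difference -1.60 ± 0.36, adjusted p = 0.0105), below every control, and its second probe set gave -3.49. The ligand Nodal had signals of 349, 332 and 303 in the controls and 428, 497 and 461 at day 3 (log2 difference 0.60 ± 0.16, adjusted p = 0.0248) and Inhba, an activin subunit, of 23.8, 15.6 and 24.6 in the controls and 34.0, 34.5 and 38.7 at day 3 (log2 difference 0.63 ± 0.17, adjusted p = 0.0234). Both rose by about the same small amount. The BMP targets Id1 (216, 243 and 202 in the controls and 459.5, 557 and 316 at day 3, log2 difference 1.14 ± 0.26, adjusted p = 0.0113) and Id2 (1.46 ± 0.45, adjusted p = 0.0425) were higher although Bmp4 was lower, and Id3 was at 1.08 ± 0.35 (adjusted p = 0.0531). Fst, an activin antagonist, rose by 1.39 ± 0.42 and Smad1 by 0.57 ± 0.16. With the random block 0 genes rose and 0 fell in this list, where 8 and 1 passed at an unadjusted p under 0.05 in limma, and with 1 library left out between 1 (without control medium or day 3 medium) and 4 (without control high 2) rose. Nodal lost its call without control high 1, control medium, day 3 medium or day 3 low, Inhba without control high 2, control medium, day 3 high or day 3 low, Fst without any 1 library except control high 2, and Id1 without day 3 medium. Nodal and Inhba were also not past the test when each array was centred on its median.

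Over the lists of streak, endoderm, trophoblast and blood the counts stand beside 12.7% of all genes changed. Of 10 primitive streak and mesoderm genes tested, Wnt3 was the 1 that changed. Eomes had signals of 27.4, 16.6 and 34.5 in the controls and 43.5, 30.1 and 29.8 at day 3, Lhx1 of 9.12, 36.4 and 9.79 in the controls and 23.6, 20.4 and 23.2 at day 3 and Tbx6 of 41.1, 49.7 and 40.9 in the controls and 47.1, 54.1 and 35.4 at day 3. The groups overlapped in all 3. T and Mixl1 have no probe set in the annotation used, and Mesp1, Gsc, Fgf8, Kdr and Snai1 were too dim to be tested. Wnt3a (-0.43 ± 0.28), Mesp2 (-0.45 ± 0.34) and Pdgfra (-0.75 ± 0.40) were not past the test. A second Pdgfra probe set gave 0.36 ± 0.38, also not past the test.

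For endoderm 2 of 20 genes rose and 1 fell (median 0.24), and 0 of either with the random block (3 and 1 at an unadjusted p under 0.05 in limma). Dab2, an endocytic adaptor of primitive endoderm, had signals of 12.3, 16.4 and 30.4 in the controls and 95.3, 101 and 327 at day 3 (log2 difference 2.49 ± 0.49, adjusted p = 0.00486), and its other probe sets gave 1.17 and 0.12. Lama1, a laminin chain, had signals of 150.2, 146 and 127 in the controls and 19.6, 51.7 and 117 at day 3 (log2 difference -1.68 ± 0.38, adjusted p = 0.00971), and lost its call without day 3 high. Both genes were separate between groups, with day 3 low the highest of the day 3 libraries. The transcription factors Gata4 (0.56 ± 0.26), Gata6 (-0.42 ± 0.19), Sox7 (0.01 ± 0.23) and Sox17 (0.14 ± 0.43) and the secreted Afp (-0.04 ± 0.34) were not past the test. Of 10 trophoblast genes the keratins Krt8 and Krt18 rose and Tfap2c fell (508, 701 and 715 in the controls and 202, 328 and 457 at day 3, log2 difference -1.19 ± 0.32, adjusted p = 0.0246), with a call that held only without day 3 low when 1 library was left out. Cdx2, Elf5 and Gata3 were too dim to be tested. In the list of blood and endothelium 0 of 10 genes changed. At an unadjusted p under 0.05, 1 of the 10 passed in limma, and the largest difference was that of Etv2 with 0.58 ± 0.22.

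The retinoic acid list, with the Hox genes, held 1 change in 13 genes, beside 12.7% of all genes changed. Rara, a receptor of RA, had signals of 2701, 2227 and 2457 in the controls and 1322, 1336 and 1038 at day 3 (log2 difference -0.91 ± 0.16, adjusted p = 0.00377), and no day 3 library reached a control. With chip lot as a fixed block its adjusted p was 0.113. A second Rara probe set gave -0.68 ± 0.35 and was not past the test. Stra8 had signals of 113, 14.8 and 84.2 in the controls and 1.64, 1.88 and 1.5 at day 3 (log2 difference -3.06 ± 1.25, adjusted p = 0.12). It was not past the test, and it passed without the doubted library (-3.37 ± 0.48, adjusted p = 0.000385). In the doubted library Stra8 stood at 685, against 3.65 to 6.33 in the other 3 libraries labelled day 1 without LIF and 308 to 361 at day 1 with RA, so for this gene that library goes against its label. Crabp1 (-0.51 ± 0.22) and Hoxb7 (0.59 ± 0.29) were not past the test either.

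Genes that interferon induces, with those of antigen presentation, rose in 8 of 16 cases and fell in 1, against 6.94% and 5.80% of all genes. The median was 1.01. The count was 4 with the random block, 9 without the doubted library and between 4 (without control high 1 or day 3 low) and 6 (without control high 2, control medium or day 3 high) with 1 library left out. The promoters of 4 risers are shown, 3 because 1 short motif recurs in them and Psmb8 for another. Capitals mark a match to GAAANNGAAA, the repeated core of interferon response elements, on either strand in Gbp2, Gbp2b and B2m, and to TTCNNNGAA in Psmb8. Each run is the 250 bases before the start in RefSeq GRCm38.p6, 5′ to 3′ on the strand of the gene. Gbp2 lies at chr3:142620413-142620662, plus strand, Gbp2b at chr3:142594597-142594846, plus strand, B2m at chr2:122147437-122147686, plus strand and Psmb8 at chr17:34197945-34198194, plus strand.
Gbp2: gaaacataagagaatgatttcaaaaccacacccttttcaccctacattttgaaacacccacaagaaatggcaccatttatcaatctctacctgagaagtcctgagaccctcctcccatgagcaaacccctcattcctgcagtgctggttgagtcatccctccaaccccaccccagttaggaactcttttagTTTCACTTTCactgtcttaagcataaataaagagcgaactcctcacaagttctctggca
Gbp2b: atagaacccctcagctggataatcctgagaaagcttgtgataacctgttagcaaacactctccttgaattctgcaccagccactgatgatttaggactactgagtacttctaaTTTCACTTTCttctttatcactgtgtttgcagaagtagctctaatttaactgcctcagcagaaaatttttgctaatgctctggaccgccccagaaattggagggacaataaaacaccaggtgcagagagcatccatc
B2m: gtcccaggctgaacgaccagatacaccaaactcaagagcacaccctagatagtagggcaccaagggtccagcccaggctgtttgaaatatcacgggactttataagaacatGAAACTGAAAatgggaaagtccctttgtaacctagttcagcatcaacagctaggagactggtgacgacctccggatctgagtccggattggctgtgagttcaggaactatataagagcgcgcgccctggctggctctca
Psmb8: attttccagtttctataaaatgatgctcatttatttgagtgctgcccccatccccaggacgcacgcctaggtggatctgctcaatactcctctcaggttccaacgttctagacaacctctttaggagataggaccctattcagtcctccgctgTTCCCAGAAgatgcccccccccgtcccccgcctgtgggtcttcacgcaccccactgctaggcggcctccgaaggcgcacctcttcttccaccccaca
The interferon motif occurs in 6 of the 16 genes of the list (Gbp2, Gbp2b, Gbp3, Igtp, B2m and Stat2) and in 3.46% of all genes with a promoter. Of these 6, Igtp (0.37 ± 0.16) and Stat2 (-0.55 ± 0.24) were not past the test. Irf1, Igtp and Psmb8 hold the STAT motif. The list was assembled from genes of shared regulation and the motifs were chosen after values were seen, so the shares are a description.

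Gbp2, an interferon-induced GTPase, had signals of 3.78, 9.87 and 11.5 in the controls and 54.1, 52.5 and 61.2 at day 3 (log2 difference 2.32 ± 0.37, adjusted p = 0.00137). Its relative Gbp2b had signals of 1.07, 2.16 and 1.48 in the controls and 19.6, 10.8 and 34.0 at day 3 (log2 difference 2.15 ± 0.32, adjusted p = 0.000903). The brightness filter uses the mean over all libraries, with the lowest mean signal tested at 23.9 on chip A. Gbp2b stood at 779, 570 and 450 at day 5, so its place among the tested genes and the risers rests on other arms. Near-identical family members may share probe hybridisation, so these GTPases are not independent. Psmb8, a catalytic subunit of the immunoproteasome, had signals of 6.04, 25.2 and 2.62 in the controls and 83.3, 83.0 and 62.9 at day 3 (log2 difference 2.91 ± 0.43, adjusted p = 0.000932). B2m, the light chain of MHC class I, had signals of 65.9, 101 and 69.7 in the controls and 213, 269 and 296 at day 3 (log2 difference 1.74 ± 0.36, adjusted p = 0.00589). In all 4 genes day 3 was separate from control, from control signals that for Gbp2, Gbp2b and Psmb8 were among the dimmest on the array. Gbp3 rose by 1.17 ± 0.31, the peptide transporter Tap1 by 0.84 ± 0.22, H2-D1 by 1.28 ± 0.38 and the factor Irf1 by 0.98 ± 0.29. Irf9, a subunit of the type I interferon factor ISGF3, fell (-1.002 ± 0.23, adjusted p = 0.0106), and Psmb9 (1.25 ± 0.44), H2-K1 (1.04 ± 0.35) and Irf7 (0.72 ± 0.40) were not past the test. Isg15, Ifit1 and Ifit3 were too dim to be tested.

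Chromatin genes fell more often than they rose, 5 against 1 of 19 (median -0.28), beside 5.80% and 6.94% of all genes. Tet2, which oxidises methylated cytosine, had signals of 1306, 1141 and 918 in the controls and 252, 217 and 289 at day 3 (log2 difference -2.15 ± 0.19, adjusted p = 0.000115), and its second probe set gave -2.43. Of the 7 tested genes of Polycomb repressive complex 2, which methylates histone H3, 4 fell. Eed had signals of 1173, 1017 and 1179 in the controls and 573, 547 and 567 at day 3 (log2 difference -1.06 ± 0.22, adjusted p = 0.00575), the cofactor Jarid2 of 3119.8, 2475 and 2666 in the controls and 1139.6, 1452 and 1708 at day 3 (log2 difference -1.01 ± 0.21, adjusted p = 0.00683) and the accessory subunit Mtf2 of 663, 442 and 859.6 in the controls and 291, 265 and 430.1 at day 3 (log2 difference -1.11 ± 0.24, adjusted p = 0.00846). All day 3 libraries lay below all controls in these genes. The methyltransferase Ezh2 fell too (-0.59 ± 0.13, adjusted p = 0.0104), while Suz12 was at -0.41 ± 0.25, Rbbp4 at -0.29 ± 0.14 and Rbbp7 at 0.19 ± 0.12. Dnmt1 (-0.18 ± 0.13) and Uhrf1 (-0.28 ± 0.17), which maintain methylation, were not past the test. The number that fell was 2 with the random block and between 3 (without day 3 medium) and 6 (without control high 2) with 1 library left out. Jarid2 lost its call without day 3 high, and Mtf2 without control medium or day 3 medium.

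Of 25 genes of replication and mitosis 4 fell and 0 rose, against 5.80% and 6.94% of all genes (median -0.27). At an unadjusted p under 0.05 in limma 7 fell and 1 rose. All day 3 libraries lay below all controls for 13 of the 25, against 15.3% of all genes. The mean log2 level of the list ranged from 9.63 to 9.72 in the controls and from 9.35 to 9.40 at day 3. Mybl2, a cell cycle factor, had signals of 1156, 1029 and 1198 in the controls and 368, 379 and 348 at day 3 (log2 difference -1.68 ± 0.33, adjusted p = 0.00453), with -1.54 and -0.35 on other probe sets. Bub1b, a spindle checkpoint kinase, had signals of 2654, 2268 and 2269 in the controls and 1509, 1442 and 1263 at day 3 (log2 difference -0.72 ± 0.20, adjusted p = 0.0375). Top2a and Rrm1 were the other two, at -0.61 ± 0.18 and -0.54 ± 0.16. Pcna (-0.08 ± 0.14), Mcm2 (0.08 ± 0.14), Ccna2 (-0.11 ± 0.12) and Mki67 (0.41 ± 0.15) were not past the test. With 1 library left out the count was between 1 (without control high 1, control medium or day 3 medium) and 4 (without control high 2), and it was 1 with the random block. Bub1b lost its call without any 1 library except control high 2, Top2a without control high 1, control medium, day 3 high or day 3 medium, and Rrm1 without control high 1, control medium, day 3 medium or day 3 low. Among 15 cyclins and inhibitors of their kinases Cdk6 rose (133, 185 and 101 in the controls and 285, 285 and 312 at day 3, log2 difference 1.10 ± 0.21, adjusted p = 0.00577) and Ccnd3 fell (740.1, 527 and 742 in the controls and 340.4, 418 and 439 at day 3, log2 difference -0.80 ± 0.16, adjusted p = 0.00536), while Ccnd1 (0.29 ± 0.18) and Cdkn1a (-0.04 ± 0.23) were not past the test.

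In glycolysis 2 of 21 genes fell and 0 rose, against 5.80% and 6.94% of all genes, so the count does not set this list apart. Pfkp, the platelet form of phosphofructokinase, had signals of 485, 541 and 574 in the controls and 99.9, 108 and 108 at day 3 (log2 difference -2.38 ± 0.27, adjusted p = 0.000161), while Pfkl (0.50 ± 0.20) and Pfkm (0.30 ± 0.13), the other two forms, were not past the test. Hk2 (hexokinase 2) had signals of 1253, 1128 and 1265 in the controls and 795, 856 and 765 at day 3 (log2 difference -0.60 ± 0.11, adjusted p = 0.00361). Neither gene overlapped between groups. Other probe sets of Pfkp gave -1.88 and -0.68 ± 0.47, the latter not past the test. The enzymes Pgk1 (-0.13 ± 0.13), Ldha (0.03 ± 0.12) and Pkm (0.11 ± 0.12) were not past the test, nor were Aldoc (-0.64 ± 0.21), the glucose transporters Slc2a3 (-0.54 ± 0.30) and Slc2a1 (-0.44 ± 0.34) and the lactate transporter Slc16a1 (0.61 ± 0.20). Slc16a1 passed without the doubted library (0.60 ± 0.20, adjusted p = 0.0471).

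Genes of immediate early and dissociation stress, which trypsin and sorting can induce, rose in 5 of 17 cases and fell in 0 (median 0.40). Of all genes 6.94% rose and 5.80% fell. Atf3 had signals of 56.3, 45.9 and 47.5 in the controls and 184, 152 and 133 at day 3 (log2 difference 1.66 ± 0.36, adjusted p = 0.008) and Jund of 1112, 1743 and 1268 in the controls and 2593, 2428 and 2365 at day 3 (log2 difference 0.89 ± 0.16, adjusted p = 0.00329). Both were separate between the groups. The other risers were Fosb (1.09 ± 0.30), the RNA-binding protein Zfp36 (0.87 ± 0.21) and Hspa1b (0.69 ± 0.17), whereas Fos (0.39 ± 0.46), Egr1 (-0.10 ± 0.21) and Dusp1 (-0.07 ± 0.16) were not past the test. The count was 1 with the random block, 3 (with 1 lower) when arrays were centred on their medians, Zfp36 and Hspa1b among those lost, and between 3 (without control high 1 or day 3 medium) and 5 (without control high 2) with 1 library left out. The mean log2 level of the list ranged from 7.57 to 7.82 in controls and from 8.08 to 8.26 at day 3. Its part in the other results was not tested.

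**Figure D3:**
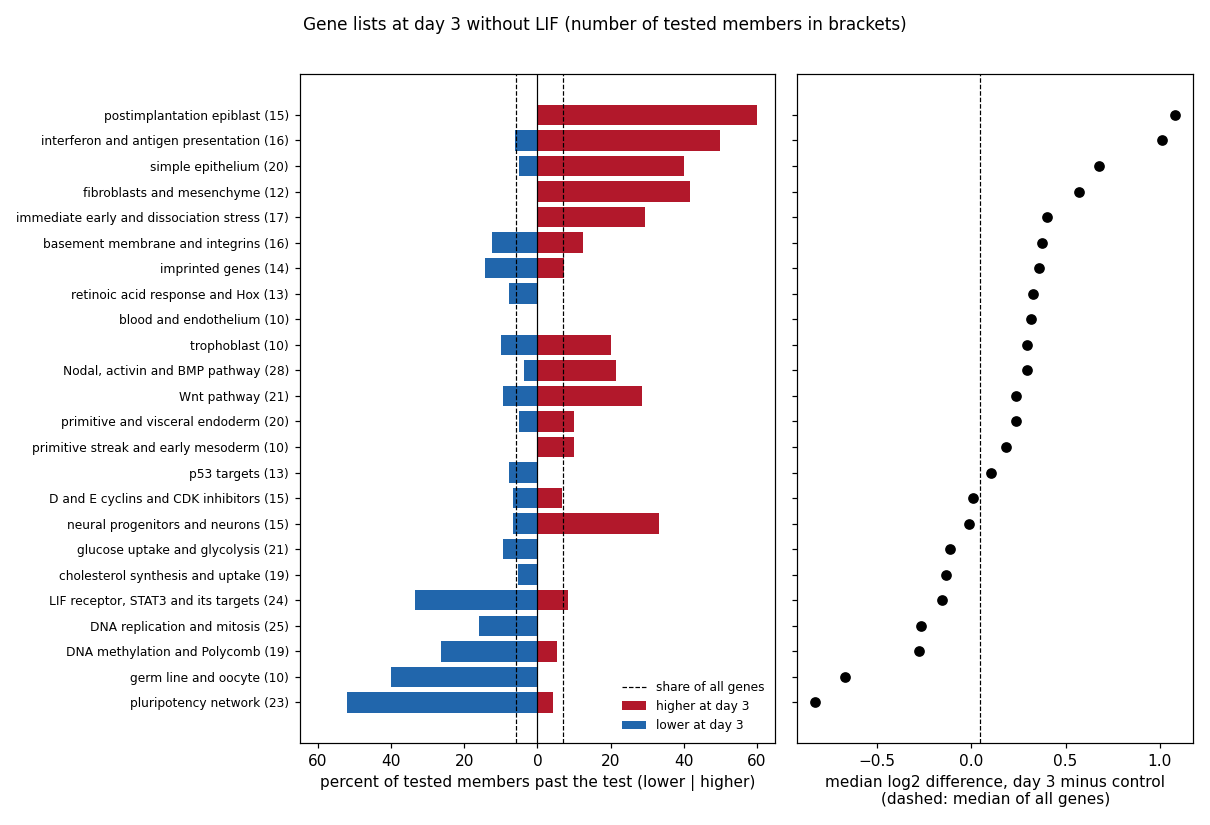
For each of 24 gene lists, the percent of tested members past the test at day 3 in each direction (left, with dashed lines at the shares of all genes, 5.80% lower and 6.94% higher) and the median log2 difference (right, dashed line at the median of all genes, 0.04). Postimplantation epiblast stands highest with a median of 1.08 and pluripotency lowest with -0.83.

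Day 3 was then set between days 1 and 5 without LIF. The number of cells plated fell with each later day, so its part in these steps was not tested. Day 3 differed from day 1 in 381 of 9833 genes (3.87%), and from day 5 in 2131 (21.7%). Against day 1 the count of probe sets was 508 (3.41%) with the doubted library, 2218 without it and 8 with the random block. Against day 5 it was 2893 (19.4%), with 972 under the random block. Of the 682 genes higher at day 3 than in controls 109 rose further by day 5 (10.8% of all genes rose from day 3 to day 5), 148 fell back (10.9% of all genes fell) and 425 had no call. Of the 570 lower genes 67 fell further, 140 rose again and 363 had no call. The day 3 libraries enter both comparisons, which favours a return toward control, so these numbers are a description.

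Among the named genes 3 courses stood out. Of the genes below, Gbp2, Lgals3, S100a6, Cabp1, Slc27a2, Cnn1, Pim2, Nell2 and Ooep were named for their step from day 3 to day 5. Their p-values and the separation of their libraries for that step follow from the choice and are no support for a course. The share of all genes with separate libraries at days 3 and 5 was not computed. In the first course, genes that were high at day 3 were higher at day 5. Gbp2 went from 54.1, 52.5 and 61.2 at day 3 to 1884, 1740.3 and 988 at day 5 (day 5 minus day 3 4.63 ± 0.36, adjusted p = 9.41e-07). Psmb8 reached 1148, 816 and 489 (3.28 ± 0.42, adjusted p = 8.02e-05), Krt18 1104, 1225 and 1429 (2.08 ± 0.35, adjusted p = 0.000712) and Wnt3 247, 252 and 226 (1.44 ± 0.38, adjusted p = 0.0121). At day 5 every library of these genes lay above every day 3 library.

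In the second course genes were high at day 3 and lower by day 5. Pim2, a survival kinase, had signals of 333, 139, 237 and 327 at day 1 (high replicate 1, doubted library, medium, low), 509.7, 484 and 386 at day 3 and 101, 64.3 and 73.1 at day 5 (day 5 minus day 3 -2.49 ± 0.36, adjusted p = 0.000192). Slc27a2, a fatty acid transporter, stood at 159.6, 151 and 219 at day 3 and 14.5, 8.37 and 9.50 at day 5 (-3.61 ± 0.38, adjusted p = 1.58e-05). Cnn1 went from 81.3, 97.7 and 88.6 to 7.33, 15.2 and 2.93 (-3.02 ± 0.47, adjusted p = 0.000402). At day 5 these 3 genes lay below all their day 3 libraries, and Slc27a2 below all controls too. Nell2, a secreted neural protein, fell by 2.44 ± 0.30 from day 3 to day 5 on the log2 scale, and Pou3f1 and Sox3 fell by 1.24 ± 0.30 and 1.39 ± 0.31. Tagln differed in this from Cnn1, with no call between days 3 and 5.

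In the third course genes were low at day 3 and high at day 5. S100a6, a calcium-binding protein, had signals of 1008, 616 and 964 in controls, 263, 274, 495 and 424 at day 1, 194, 315 and 262 at day 3 and 3549.6, 3317 and 2861 at day 5 (day 5 minus day 3 3.66 ± 0.22, adjusted p = 6.40e-08). Cabp1, another calcium-binding protein, had signals of 209, 141 and 219.8 in controls, 23.8, 20.01 and 28.9 at day 3 and 416, 397 and 281 at day 5 (3.56 ± 0.43, adjusted p = 0.000168). Lgals3 rose from 25.2, 31.0 and 20.2 at day 3 to 579, 446 and 283 at day 5 (3.86 ± 0.51, adjusted p = 0.000108). Bmp4 rose from 78.9, 87.7 and 69.5 to 436, 435 and 505 (2.49 ± 0.35, adjusted p = 0.000176). For all 4 genes the day 5 libraries lay above every control and every day 3 library. The STAT3 targets were partly of this kind, Bcl3 with 2.45 ± 0.37, adjusted p = 0.000274 and Gbx2 with 1.84 ± 0.28, adjusted p = 0.000274 from day 3 to day 5, but their day 5 signals, 123, 85.9 and 91.1 and 124, 154 and 137, lay below all 3 controls. Socs3 rose from day 3 to day 5 by 1.22 ± 0.16, adjusted p = 8.14e-05. In contrast Sox2 fell further (-1.68 ± 0.16, adjusted p = 5.63e-06), as did Pou5f1 (-1.13 ± 0.31, adjusted p = 0.0174), Ooep (-2.43 ± 0.29, adjusted p = 0.000153) and Trap1a (-2.12 ± 0.21, adjusted p = 7.31e-06).

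**Figure D4:**
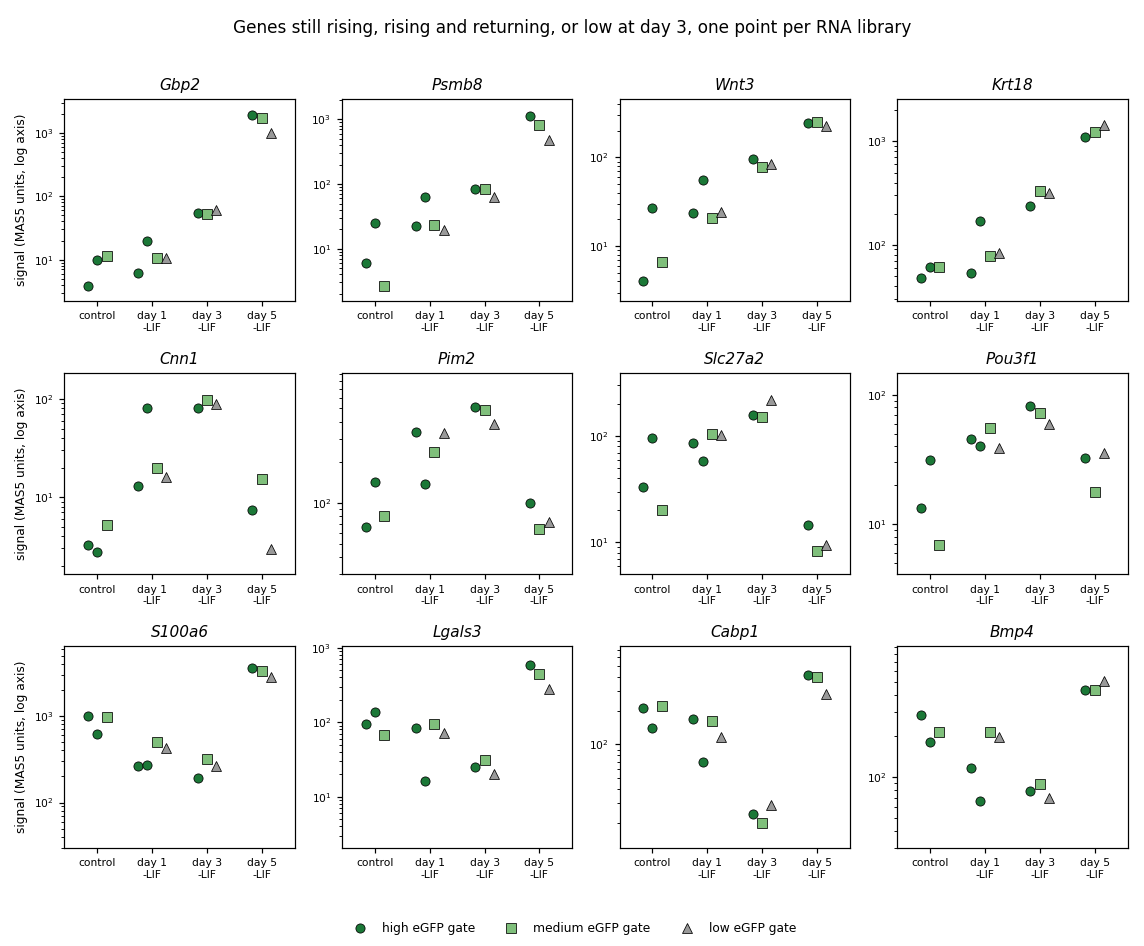
Signal (MAS5 units, log axis) of 12 genes in each library of control and days 1, 3 and 5 without LIF. Gbp2, Psmb8, Wnt3 and Krt18 are highest at day 5, Cnn1, Pim2, Slc27a2 and Pou3f1 are highest at day 3 apart from the doubted day 1 library of Cnn1, which reaches the lowest day 3 signal, and S100a6, Lgals3, Cabp1 and Bmp4 have all day 3 signals below all controls and are highest at day 5.

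Among genes also past the test against control, the largest falls from day 1 to day 3 were in 5 genes. Nr0b1 had signals of 958, 86.8, 756 and 700.4 at day 1 (high replicate 1, doubted library, medium, low), and the day 3 minus day 1 difference was -2.97 ± 0.57, adjusted p = 0.0138. Gbx2 differed by -2.57 ± 0.26, adjusted p = 0.000226, Calcoco2 by -3.02 ± 0.32, adjusted p = 0.000268, Calml4 by -2.54 ± 0.38, adjusted p = 0.00399 and Mapt by -2.73 ± 0.55, adjusted p = 0.0178. The doubted library lay near day 3 in Nr0b1, and for Gbx2, with 203, 404, 186 and 204 at day 1, it was the highest. The 5 largest upward steps, with the doubted library included, were those of Tagln (2.29 ± 0.51, adjusted p = 0.0241), Efemp1, an extracellular matrix protein (2.42 ± 0.39, adjusted p = 0.0149), Nefm, a neurofilament (2.35 ± 0.49, adjusted p = 0.0298), Samd4, an RNA-binding repressor (2.39 ± 0.48, adjusted p = 0.0272), and Igfbp3 (2.32 ± 0.31, adjusted p = 0.00216). These orders rest in part on the doubted library. Without it the day 3 minus day 1 difference was -3.71 ± 0.17 for Nr0b1, 2.84 ± 0.18 for Prtg (1.83 with it) and 2.78 ± 0.36 for Prom1, of which the last 2 lay above Igfbp3 at 2.56 ± 0.28. Against control, Efemp1 changed by 1.94 ± 0.42, Nefm by 1.90 ± 0.54 and Samd4 by 2.12 ± 0.53. The call of Nefm against control was lost without any 1 of the 6 libraries, that of Samd4 without any 1 except day 3 high, and that of Efemp1 without control high 1. Socs3 had nearly completed its fall by day 1, with signals of 77.4, 73.7, 108 and 94.3, and its day 3 minus day 1 difference was not past the test (-0.32 ± 0.15, adjusted p = 0.218).

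Day 1 with RA shared the scan day of day 3, so that comparison stays within 1 scan. On chip B 2 of the 3 RA libraries were of another chip lot than day 3. The arms still differ in RA (0.1 µM against 0), in time without LIF and in the number of cells plated, which was lower for day 3. These cannot be told apart. Of 9833 genes 414 differed (4.21%), and of the 1252 genes that changed at day 3 against control 94 did. The other differences were not past the test, which does not show that the conditions were alike. Gbx2 had signals of 36.3, 35.5 and 34.7 at day 3 and 720.2, 589.7 and 769 with RA (day 3 minus RA -4.13 ± 0.28, adjusted p = 3.03e-06). Calcoco2 stood at 4.38, 5.74 and 2.78 and 50.2, 61.2 and 47.0 (-2.78 ± 0.34, adjusted p = 0.000883). Rara and Stra8 lay lower at day 3 (-1.04 ± 0.15, adjusted p = 0.00429 and -5.92 ± 1.21, adjusted p = 0.0144). In these 4 genes every day 3 library was below every RA library. Higher at day 3 were Igfbp3 (249.9, 287 and 394 against 88.5, 92.9 and 71.1, 1.82 ± 0.33, adjusted p = 0.00736), Cldn6 (314, 490.1 and 510.5 against 94.0, 157 and 139, 1.72 ± 0.26, adjusted p = 0.00228) and Zfp36 (1.02 ± 0.20, adjusted p = 0.0114).

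The gates of day 3 hold 1 library each, so differences among them have no test. Over 9833 genes 199 were more than 1 log2 unit higher in the low than in the high gate and 116 were as much lower. The SD of the low minus high difference was 0.43, of medium minus high 0.38 and of low minus medium 0.44. Pou5f1, the gene behind the sort, had signals of 1602, 1662 and 1247 in high, medium and low, so that low was the lowest and the other two were close. Several lists leaned to the low gate, among them endoderm and basement membrane. Shares highest in the low gate were also large for p53 targets (84.6%), imprinted genes (64.3%), cholesterol synthesis (63.2%) and epithelium (60%). The lean is thus not particular to endoderm and basement membrane. Of the 20 endoderm genes 2 were lowest in the low gate, and the endoderm factor Gata4 had signals of 151, 146 and 106. In 15 of 20 endoderm genes (75%) and 14 of 16 basement membrane genes (87.5%) the low gate was the highest library, against 34.45% of all genes, and the lists share Lama1, Col4a1 and others. Dab2 had signals of 95.3, 101 and 327, Lama1 of 19.6, 51.7 and 117 and Col4a1 of 114, 174 and 343, which are low minus high differences of 1.74, 2.36 and 1.55. Col4a2 stood at 97.0, 133 and 228, while the laminin chains Lamb1 (390.1, 374 and 402) and Lamc1 (315, 265 and 337) were nearly level. In the pluripotency list 9 of 23 genes were highest in the low gate and 9 lowest (39.1% each). Klf4 and Tfcp2l1 were highest in the low gate, with 57.7, 75.6 and 125 and 112, 133 and 233. With 1 library per gate, such differences may belong to a library and not to the gate.

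**Figure D5:**
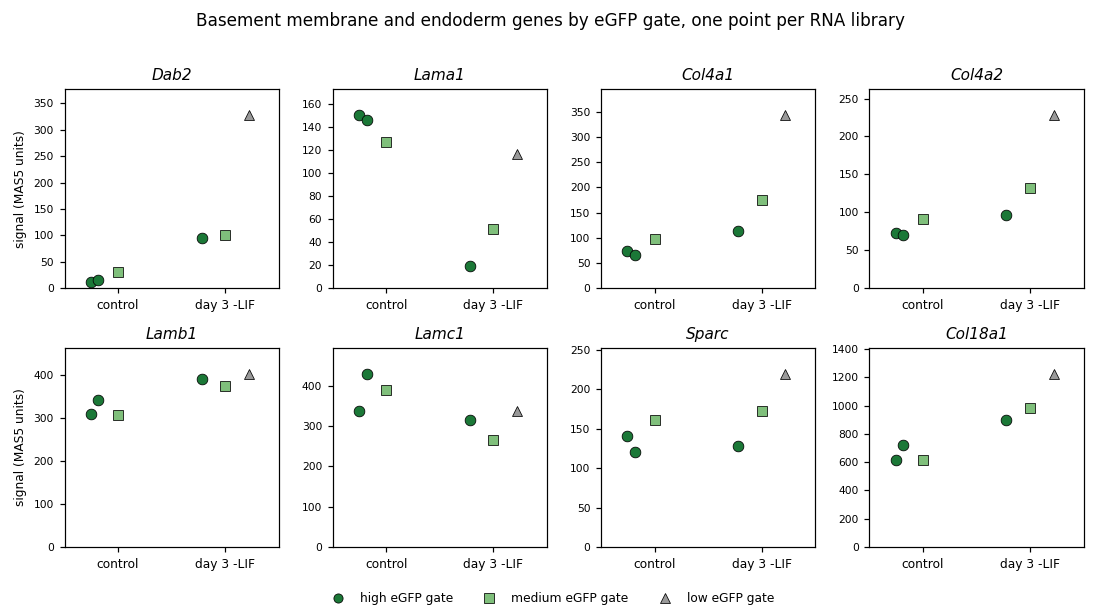
Signal (MAS5 units, linear axis from 0) of 8 basement membrane and endoderm genes in the 3 control and 3 day 3 libraries, with the eGFP gate as marker shape. The low gate of day 3 is highest among the day 3 libraries in each panel, at 327 for Dab2 and 343 for Col4a1, and by little for Lamb1 and Lamc1.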

How the data were processed

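The deposited values are 1 signal intensity for each probe set and array. Per the submitters' processing notes the tool was MAS5, with no version given in the sources used here. Each array had been scaled to 1 trimmed mean before deposit, and no further normalization was applied. Of 12422 probe sets on chip A and 12411 on chip B, 10833 and 10581 had 1 gene symbol in the platform annotation, 396 and 178 several, and 1193 and 1652 none. Symbols were checked against RefSeq GRCm38.p6 by Entrez identifier, and 0 were updated.

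The fits used limma 3.58.1 (R 4.3.3), with statmod 1.5.0 for the random block. Values of log2(signal + 4) on chip A and log2(signal + 7) on chip B were fitted with additive terms for arm and gate over all 18 libraries of a chip, so that other arms add to the error estimate. Tests covered the brightest 60% of each chip by mean log2 value over its 18 libraries (7453 and 7447), with Benjamini-Hochberg adjustment per chip. A gene can pass this filter through the arms where it is high. Among named risers, all controls of Cnn1, Lrrc8c, Gbp2 and Gbp2b lay under the lowest mean signal tested on chip A (23.9). Those of Cnr1, Trim67, Sall2, Efemp1 and Nefm lay under that of chip B (43.6). Such genes passed through arms other than the controls. Genes use 1 probe set, chip A first, then the brightest. Another probe set was not past the test for Ccnd3 (-0.39), Cald1 (0.96), Fst (0.75), Jarid2 (-0.79) and Mtf2 (-0.92), each in the direction of the one used. The procedure was tested on simulated data. Lists by name cover pluripotency, LIF, streak, epiblast, endoderm, epithelium, trophoblast, neural, fibroblast, blood, germ line, RA, Wnt, Nodal, interferon, chromatin, replication, cyclins, glycolysis, cholesterol, basement membrane, imprinting, stress and p53.

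The text names the 12 largest rises and falls, up to 4 members of a list by p, 8 set genes and the 5 largest steps each way between days 1, 3 and 5. Any other gene named was chosen after its values were seen. The groups, lists and members were chosen with earlier results of these data known.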

Additional observations from a re-analysis of the deposited data

Results flagged for a closer look

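For 55 of the 119 named genes the difference from control was not the same at day 5 as at day 3. The test was limma's for day 5 minus day 3 (adjusted p under 0.05). Of all genes, 2131 of 9833 (21.7%) differed by it. Some of the 119 were named for the size of this difference, so the count of 55 is set in part by the choice. The values in brackets are the log2 difference of day 5 minus day 3, 30 of them higher at day 5 and 25 lower. Both time points share the controls, and the scan day of day 5 is not that of day 3. Fewer cells were also plated for day 5 than for day 3. Time, scan day and plating number thus cannot be told apart for these genes.

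Higher than control at day 3 and higher again at day 5 were Gbp2b (4.64), Gbp2 (4.63), Psmb8 (3.28), Fst (2.64), Krt8 (2.61), Efemp1 (2.29), Igfbp3 (2.27), Krt18 (2.08), B2m (2.03), Slit3 (1.64), Wnt3 (1.44), Col4a1 (1.19), Col5a1 (1.10) and Lmo2 (0.74). Below control at day 3 and higher by day 5 were Pdgfra (4.11), Lgals3 (3.86), S100a6 (3.66), Cabp1 (3.56), Bmp4 (2.49), Bcl3 (2.45), Gbx2 (1.84), Peg3 (1.59), Mesp2 (1.48), Socs3 (1.22), Klf4 (1.16), Ebp (0.67), Rrm1 (0.57), Slc38a4 (0.56), Ccnd3 (0.54) and Ei24 (0.39). Below control at day 3 and lower by day 5 were Nanog (-0.88), Zp3 (-1.10), Pou5f1 (-1.13), Hk2 (-1.21), Fzd5 (-1.44), Tex19.1 (-1.45), Sox2 (-1.68), Trap1a (-2.12) and Ooep (-2.43). Above control at day 3 and lower by day 5 were Hspa1b (-0.56), Sqle (-0.59), Etv2 (-0.66), Pecam1 (-0.68), Pmaip1 (-0.70), Hes6 (-1.16), Cnr1 (-1.23), Pou3f1 (-1.24), Col18a1 (-1.28), Sfrp2 (-1.36), Sox3 (-1.39), Nefm (-1.72), Nell2 (-2.44), Pim2 (-2.49), Cnn1 (-3.02) and Slc27a2 (-3.61). Of these 55, Pou5f1, Pdgfra, Mesp2, Col4a1, Lmo2, Pmaip1, Sqle, Etv2 and Pecam1 were not past the test at day 3 against control, so their position there is a value and not a call.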

How the results depend on the processing

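For day 3 against control, the random block and the fit against control high 2 alone lowered the count most. Control high 2 was not scanned on the day of the day 3 arrays, and a single control also lowers the number of calls. That fit therefore does not measure the weight of scan day. With scan day as a random block (correlation 0.42 on chip A and 0.30 on chip B) 387 probe sets differed between day 3 and control in place of 1716, 8 in place of 508 between days 3 and 1, and 972 in place of 2893 between days 5 and 3. Against control high 2 alone (an alternative added after seeing the data) 248 differed, and the values of 3 genes without a call turned, Hba-a1 to -0.067, Mesp2 to 0.059 and Pdgfra to 0.10. On chip B, chip lot as a fixed block (also added) left 287 of 658 and 15 of the 24 calls among named chip B genes. On chip A all day 3 arrays were of 1 lot that no control shared, so chip lot and day 3 cannot be told apart there. Leaving out 1 of the 6 libraries gave 871 (without day 3 high) to 1657 (without control high 2), with 899 without control high 1, 955 without control medium and 918 without day 3 medium. For days 3 and 1, no filter on low values gave 172 and leaving out the doubted library 2218. The other settings gave 1150 to 2264 for day 3 against control, within 1.5 times of 1716. Centring each array on its median moved the median of all probe sets from 0.06 to -0.07, a shift of -0.12, and the share of calls that were higher from 56.7% to 39.8%, while the named genes kept their direction and 89 of 95 their call. No paired analysis was possible because the day 3 labels carry no replicate number. With 3 libraries per group, 1 per gate at day 3, precision is limited by the number of arrays, and values near the lowest mean signal tested (23.9 on chip A, 43.6 on chip B) by background.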

Other observations

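The counts of the 4 gene groups below stand beside 5.80% of all genes lower and 6.94% higher at day 3. In cholesterol synthesis 1 of 19 genes fell, Ebp, a sterol isomerase, with signals of 149, 130.3 and 123 in the controls and 68.8, 66.8 and 81.1 at day 3 (log2 difference -0.83 ± 0.15, adjusted p = 0.00326). The groups did not overlap. Hmgcs1 (0.64 ± 0.28), Sqle (0.49 ± 0.19) and Lss (-0.69 ± 0.25, with 0.65 on another probe set) were not past the test, and Lss passed without the doubted day 1 library (-0.74 ± 0.18, adjusted p = 0.0113). Among 13 p53 targets 1 fell, Ei24, with signals of 1255, 1069 and 1141 in the controls and 689.6, 652 and 796 at day 3 (log2 difference -0.76 ± 0.14, adjusted p = 0.00359), while Cdkn1a (-0.04 ± 0.23), Ccng1 (0.64 ± 0.29) and Pmaip1 (0.53 ± 0.20) were not past the test. Ccng1 passed without the doubted library (0.57 ± 0.15, adjusted p = 0.0182) and Pmaip1 with chip lot as a fixed block (1.03, adjusted p = 0.0397). Of these 13 genes 11 were highest in the low gate of day 3 (84.6%), against 34.45% of all genes.

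Basement membrane and integrin genes split, with 2 of 16 higher and 2 lower. Lama5, a laminin chain, had signals of 222, 315 and 212 in the controls and 389, 409 and 456 at day 3 (log2 difference 0.75 ± 0.19, adjusted p = 0.019) and Col18a1 of 613, 723 and 615 in the controls and 897, 981 and 1224 at day 3 (log2 difference 0.61 ± 0.16, adjusted p = 0.0202). Itga6, a laminin receptor chain, had signals of 276, 214 and 271 in the controls and 135, 114 and 189.7 at day 3 (log2 difference -0.89 ± 0.26, adjusted p = 0.0328), and Lama1 fell as given above. These calls were lost in several fits that left out 1 library, Lama5 without any except control high 2, Col18a1 without control high 1, control medium, day 3 medium or day 3 low, and Itga6 without control high 1, control medium, day 3 high or day 3 medium. Other probe sets of Col18a1 gave 0.50, 0.43 and 0.18, of which the last 2 were not past the test. With the random block 0 of the 16 changed (4 higher and 2 lower at an unadjusted p under 0.05 in limma).

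Of 14 imprinted genes 1 rose and 2 fell. Ndn (necdin) had signals of 64.8, 73.3 and 52.5 in the controls and 205, 199.98 and 211 at day 3 (log2 difference 1.68 ± 0.28, adjusted p = 0.00187), with 1.13 on a second probe set, and no library overlapped. Peg3 had signals of 975, 1218 and 922 in the controls and 613, 619 and 685 at day 3 (log2 difference -0.77 ± 0.24, adjusted p = 0.0432), with -1.09 and 0.25 on other probe sets, and its call was lost without any 1 of the 6 libraries. Slc38a4, an amino acid transporter, stood at 837, 622 and 922 in the controls and 467, 526 and 709 at day 3 (log2 difference -0.60 ± 0.15, adjusted p = 0.0162), with 1 day 3 library above the lowest control and 0.36 on another probe set, and its call was lost without control high 1, control medium, day 3 high or day 3 medium. The non-coding RNA Meg3 was at 1.48 ± 0.48 and Igf2 at 0.84 ± 0.51, neither past the test. Meg3 passed without the doubted library (1.44 ± 0.46, adjusted p = 0.0457).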
